A study of Mus musculus with 6 samples.

Results

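The Egr, Nr4a and Ier immediate early genes were taken from the deposited gene table by symbol, 10 of 24391 genes: Egr1, Egr2, Egr3, Egr4, Nr4a1, Nr4a2, Nr4a3, Ier2, Ier3 and Ier5. All 10 symbols were found. The level of 9 of them was high enough to be tested, and Egr4 had no count in any library. The cells were Neuro2a, an established mouse neuroblastoma line, so both groups come from 1 line. Poly(A) RNA was sequenced in 3 libraries of control cells, treated with vehicle, and 3 libraries of cells exposed to D-serine at 5 mM. In both groups the growth medium was replaced by one labelled D-MEM(-SG), with 10% FBS, and kept for 18 h. D-serine, the D-enantiomer of the amino acid serine, acts together with glutamate on NMDA receptors in neurons.

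Immediate early genes are transcribed from factors already present in the cell, without new protein synthesis, when growth factors, depolarisation or stress activate ERK, CREB or the serum response factor. Their induction is fast and transient, so a sample taken many hours after a medium change shows their maintained level and not the first response. EGR proteins are zinc finger transcription factors that bind GC-rich promoters and are held back by the NAB corepressors. NR4A proteins are orphan nuclear receptors, of which Nr4a2 is required by midbrain dopamine neurons. The Ier genes share the timing of induction and not a protein family. Ier2 encodes a nuclear protein, Ier3 a regulator of survival under stress, and Ier5 a partner of heat shock factor HSF1.

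Some of the promoters carry matches to elements through which this induction is known to run. Stretches that hold such matches in the tested Egr2 and Nr4a genes and in the silent Egr4 are shown here for comparison with their levels. Promoter windows from RefSeq (GRCm38.p6, 250 bases before to 50 after a start) were found for 7 of the 10 genes. Egr1, Egr3 and Ier2 had no entry. Capitals mark the CREB half-site TGACG, read as CGTCA when it lies on the other strand, and, in Egr2, the CArG box bound by serum response factor. Each sequence is written 5′ to 3′ on the strand of its gene and overlaps no GENCODE exon.
Egr2, chr10:67537746-67537830, plus strand: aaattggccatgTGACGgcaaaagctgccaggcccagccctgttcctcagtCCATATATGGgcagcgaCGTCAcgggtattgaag
Egr4, chr6:85513682-85513710, minus strand: tttggtcatttaCGTCAcggcgccagggc
Nr4a1, chr15:101266765-101266822, plus strand: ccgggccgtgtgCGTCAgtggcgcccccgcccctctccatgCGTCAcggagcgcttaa
Nr4a2, chr2:57124098-57124159, minus strand: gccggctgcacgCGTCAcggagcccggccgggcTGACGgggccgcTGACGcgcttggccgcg
Nr4a3, chr4:48045062-48045116, plus strand: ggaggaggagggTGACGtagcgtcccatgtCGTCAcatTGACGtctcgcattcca

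Over the whole window of 300 bases, searched on both strands, Nr4a1, Nr4a2 and Nr4a3 held 4 half-sites each and Egr4 held 2. Of the 5 windows of Egr2, which lie at different starts, 3 overlap one another and held the same pair of half-sites with the CArG box shown, and 1 upstream of them held another CArG box. Of all 32851 promoter windows, 20.8% held at least 1 half-site. The share that held 2 or 4 was not counted, so how unusual such numbers are cannot be judged. The full CREB site TGACGTCA, which contains the half-site on both strands and was found in 1.79% of all windows, was in no window of these genes. A CArG box was found in 1.63% of all windows and, among these genes, in Egr2. Nr4a1 also held the EGR site GCGGGGGCG, present in 2.91% of all windows. The NR4A response element AAAGGTCA (1.51% of all windows) was in none of the 7. Ier3 and Ier5 held no match to any motif searched. A match describes the letters and is not a measured binding site.

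Gene by gene, D-serine and control were compared by edgeR's quasi-likelihood test on the raw counts, with Benjamini-Hochberg adjustment over all 13366 tested genes and a threshold of 0.05. The labels name the libraries of a group as separate samples but do not say that they came from separate cultures, so p-values measure only the spread between these samples, which may be technical. Total counts ran from 32518483 to 40024265 with no detectable difference by group (p = 0.4 in a two-sided exact permutation test, whose smallest possible p with 3 against 3 is 0.1). D-serine replicate 1 stood apart from its fellows, with a chi-square per degree of freedom of 17.7 and 13.9 against D-serine replicates 2 and 3, where other pairs of a group gave 3.88 to 6.54. Over all tested genes 9.74% were called, 4.84% as higher and 4.9% as lower with D-serine. That split was 914 higher and 412 lower under upper quartile scaling, against 647 and 655 as tested. Of the 14 neuroblastoma and neuron markers, 11 had a mean of at least 1 CPM (counts scaled to library size, as described under the processing), among them Hand2, a transcription factor of the sympathoadrenal lineage. Their summed level was 1498 to 1574 CPM in control and 1604 to 1722 CPM with D-serine, without overlap. Tubb3, the neuronal tubulin, was the marker called (log2 fold change 0.25, edgeR adjusted p = 0.0148). This call did not hold with control replicate 1 (adjusted p = 0.0807) or control replicate 2 (0.0719) left out, and the part of this shift in the results below was not tested. Of 15 markers of fibroblasts, leukocytes, glia, endothelium and epithelium, 3 reached 1 CPM, and their sum was 11.1 to 12.1 CPM in control and 9.66 to 12.7 CPM with D-serine. Lum and Aqp4 had no count at all. In such bulk samples fewer cells with a transcript and less of it per cell cannot be told apart.

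Among the 10 genes, Egr1 was lower with D-serine and no other gene passed the test. The call is 1 of 9 tested genes (11.1%), next to 9.74% of all tested genes. The median log2 fold change of the 9 genes was -0.013, next to 0.0053 over all tested genes, and moved to -0.058 with each library's length trend removed. It ran from -0.087 to -0.0038 with 1 library left out. For 3 of the 9, Egr1, Egr2 and Ier2, every library of one group lay on the same side of the other group, next to 32.9% of all tested genes. All 6 tested Egr and Nr4a genes had a negative log2 fold change and all 3 Ier genes a positive one, but Egr3 and Nr4a1 were positive under upper quartile scaling and with library totals, and the signs of Egr3, Nr4a1, Ier3 and Ier5 each changed in some alternative.

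**Figure D1:**
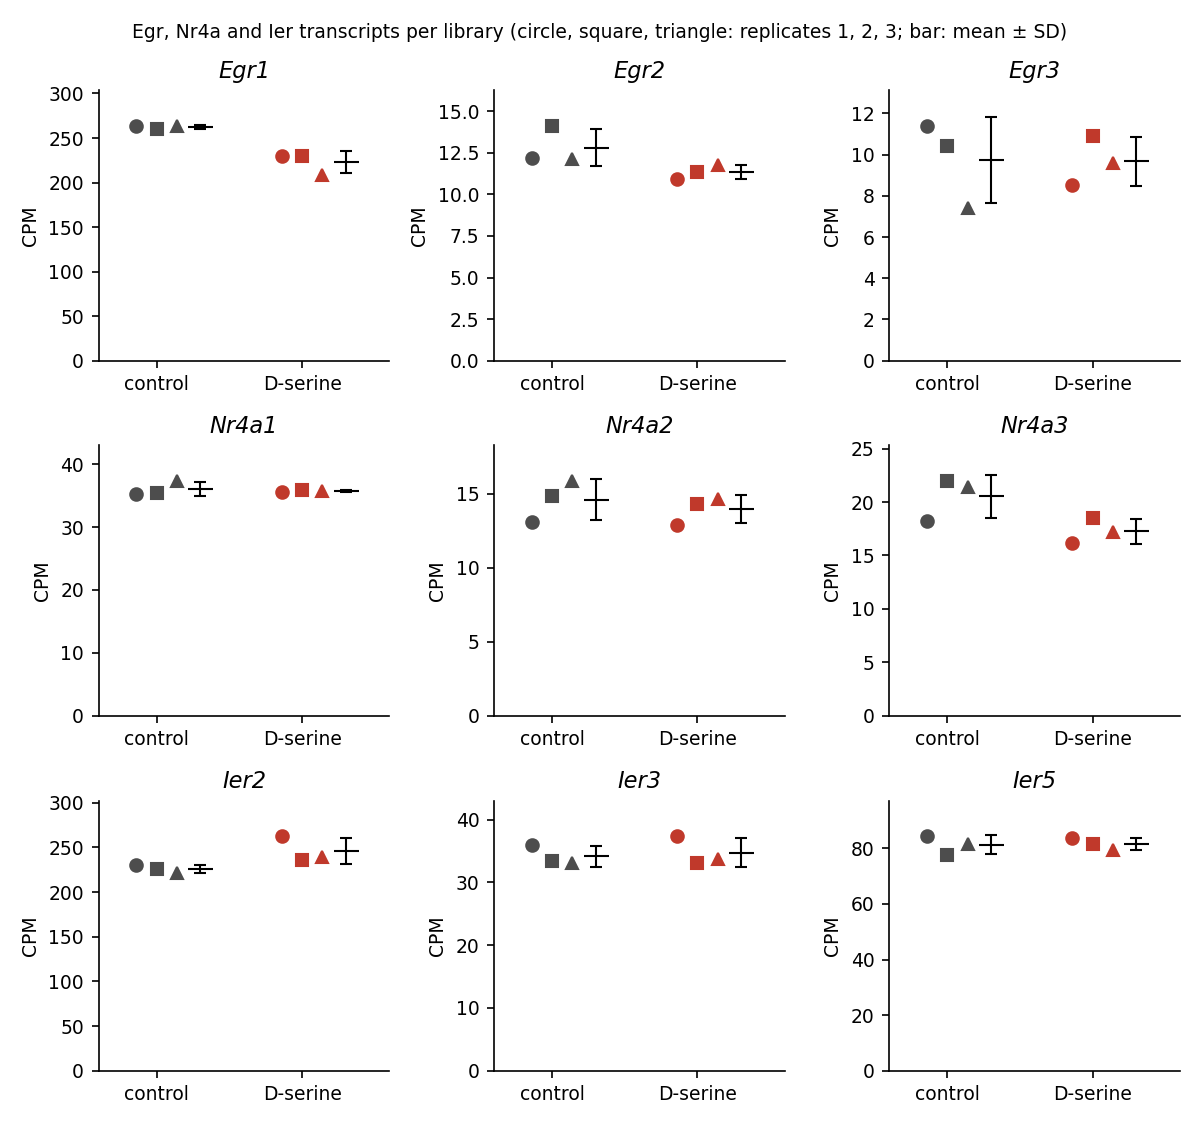
Level in CPM (y axis, from 0) of each tested gene in the 3 control libraries (grey) and the 3 D-serine libraries (red), with the mean ± SD beside each group. The groups are apart in Egr1 (208 to 230 against 260 to 264 CPM), Egr2 and Ier2, and overlap in the other panels.

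Egr1 (chromosome 18, 35020861 to 35024610, plus strand) encodes the most widely induced factor of the family. Its levels were 263, 260 and 264 CPM in control replicates 1 to 3, from 8495 to 9818 counts. With D-serine they were 230, 230 and 208 CPM, from 8400 to 9021 counts. Every D-serine library lay below every control library, and D-serine replicate 3 was the lowest. The control mean was 262 ± 1.83 CPM and the D-serine mean 223 ± 12.3 CPM (both SD, n = 3), and the fall was called at a log2 fold change of -0.24 with an SE of 0.046 (adjusted p = 0.0127 in edgeR), or -15.2% with a 95% interval from -20.9% to -9.06% that is not adjusted for the number of genes. The control libraries differed by an SD of under 2 CPM and the D-serine libraries by more than 10 CPM, so most of the within-group spread was on the D-serine side. Counting error alone gives 1.06% at the mean count of Egr1, which is more than the control SD. The difference in spread between the groups was not tested. DESeq2 gave an adjusted p of 0.000354. Without D-serine replicate 1, the library that stands apart, the log2 fold change was -0.26 and the edgeR adjusted p 0.000362. The call was lost when control replicate 1 (adjusted p = 0.0604), control replicate 2 (0.0648) or D-serine replicate 3 (0.0574) was left out, with log2 fold changes of -0.23, -0.24 and -0.19. Egr1 was past the threshold in 14 of 17 alternatives, with adjusted p-values from 0.000354 to 0.0648, and was negative in all 17.

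Egr2 (chromosome 10, 67000617 to 67004936, plus strand) is the family member needed for hindbrain patterning and myelination, and its promoter stretch above holds both a CArG box and 2 half-sites. It was measured at 12.2, 14.1 and 12.1 CPM in control replicates 1 to 3 and at 10.9, 11.4 and 11.8 CPM in D-serine replicates 1 to 3. The groups did not overlap, with a gap of under 1 CPM between the highest D-serine and the lowest control library. The difference on the log2 scale was -0.18 (SE 0.091, edgeR adjusted p = 0.221), and the 95% interval of the difference ran from -22.7% to 1.35%. Without control replicate 2, the highest library, it was -0.099 with an adjusted p of 0.602.

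Egr3 (chromosome 14, 70477252 to 70482420, plus strand), which acts in muscle spindle development and in neurons, was the most variable gene of the set. It was measured at 11.4, 10.4 and 7.42 CPM in control and 8.54, 10.9 and 9.61 CPM with D-serine. The D-serine libraries lay inside the control range. Its estimated log2 fold change was -0.0060 (SE 0.14, edgeR adjusted p = 0.986), with a 95% interval from -19.8% to 23.6% that leaves room for a change as large as that of Egr1 in either direction. Its sign changed with the setting, being positive in 10 of 17 alternatives and reaching 0.12 without control replicate 1 and -0.17 without control replicate 3.

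Egr4 (chromosome 6, 85461116 to 85463536, minus strand) had 0 counts in all 6 libraries. At 3 counts per library, the limit that a count of 0 allows is 0.0745 to 0.0930 CPM, and it covers counting error only. No fold change can be given. The stretch of its promoter shown above holds 1 of the 2 half-sites of its window.

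Of the nuclear receptors, Nr4a1 (chromosome 15, 101097277 to 101105225, plus strand) was the steadiest gene of the set. It was measured at 35.3, 35.5 and 37.4 CPM in control and at 35.6, 35.8 and 35.7 CPM with D-serine. The groups overlapped throughout. The coefficient of variation over all 6 libraries was 2.12%, no more than the 2.74% that counting error alone gives at its mean count. The log2 fold change was -0.013 (SE 0.055, edgeR adjusted p = 0.913), and the interval of the difference, from -8.72% to 7.67%, does not reach the -15.2% measured for Egr1.

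Nr4a2 (chromosome 2, 56959637 to 56976414, minus strand) was measured at 13.1, 14.8 and 15.9 CPM in control and at 12.9, 14.3 and 14.6 CPM with D-serine. The groups overlapped, with replicate 1 the lowest in each. The log2 fold change was -0.069 (SE 0.091, edgeR adjusted p = 0.659, 95% interval from -16.9% to 9.29%). With 1 library left out it ran from -0.14 (without control replicate 1) to -0.0038 (without control replicate 3).

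Nr4a3 (chromosome 4, 48058177 to 48099318, plus strand) had a point estimate as low as that of Egr1 but did not pass the test. Its levels were 18.2, 22.0 and 21.4 CPM in control and 16.1, 18.5 and 17.2 CPM with D-serine. The groups overlapped, because D-serine replicate 2 lay just above control replicate 1. The log2 fold change was -0.25 (SE 0.086, edgeR adjusted p = 0.0783, 95% interval from -26.3% to -4.56%). It was negative in all 17 alternatives, between -0.33 (without control replicate 1, adjusted p = 0.0687) and -0.18, and passed the threshold in 1 of them, that without a filter on low counts (adjusted p = 0.0465). The estimate was -0.19 with the length trend removed (edgeR adjusted p = 0.125) and -0.21 without D-serine replicate 1 (0.129). Without control replicate 2 it was -0.20 (0.26).

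**Figure D2:**
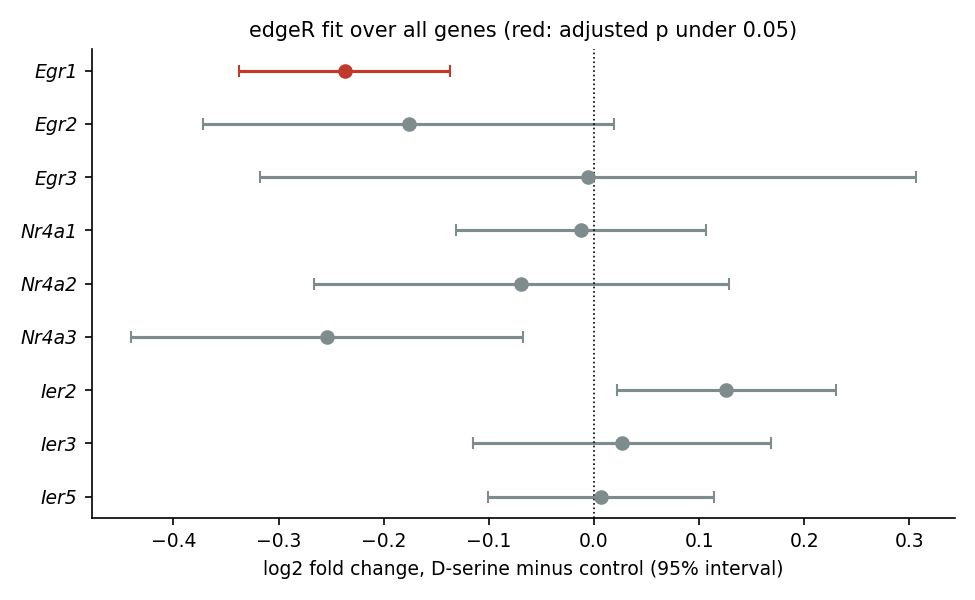
Log2 fold change of D-serine minus control (x axis) for each tested gene (y axis), with its 95% interval from the edgeR fit over all genes, not adjusted for the number of genes. Egr1, in red, has an adjusted p of 0.0127, and Nr4a3 and Ier2, whose intervals also leave out 0, have adjusted p-values of 0.0783 and 0.111.

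Ier2 (chromosome 8, 87185230 to 87186751, minus strand) had the largest positive estimate. Its levels were 230, 226 and 221 CPM in control replicates 1 to 3 and 263, 236 and 239 CPM with D-serine. Every D-serine library was above every control library, and D-serine replicate 1 was the highest by more than 20 CPM. It was 0.13 higher on the log2 scale (SE 0.048, edgeR adjusted p = 0.111, 95% interval from 1.53% to 17.3%). It moved with the library that stands apart, to 0.075 without D-serine replicate 1 (adjusted p = 0.173) and to 0.066 when each library's smooth trend of counts on gene length was removed (adjusted p = 0.193). It was positive in all 17 alternatives and past the threshold in none.

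Ier3 (chromosome 17, 35958658 to 35959856, plus strand) was measured at 36.0, 33.4 and 33.1 CPM in control and at 37.5, 33.1 and 33.7 CPM with D-serine. Replicate 1 was the highest in both groups and the groups overlapped. Its log2 fold change was 0.026 (SE 0.066, edgeR adjusted p = 0.832, 95% interval from -7.67% to 12.4%), and -0.058 with the length trend removed.

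Ier5 (chromosome 1, 156943497 to 156946766, minus strand) was measured at 84.5, 77.7 and 81.6 CPM in control and at 83.9, 81.6 and 79.4 CPM with D-serine. The D-serine libraries lay inside the control range. The log2 fold change was 0.0066 (SE 0.050, edgeR adjusted p = 0.952, 95% interval from -6.73% to 8.20%). None of the 10 genes shares exonic bases with another gene of the table.

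Because Egr1 and Ier2 are both abundant and their estimates had opposite signs, their ratio within each library was also read, which does not depend on how libraries are scaled. The pair was chosen after its values were seen, so the ratio is a description with no test. Per base of exon, Ier2 counts were 1.76, 1.75 and 1.69 times those of Egr1 in control replicates 1 to 3. With D-serine the ratio was 2.31, 2.07 and 2.32. The groups did not overlap, with means of 1.73 ± 0.037 and 2.23 ± 0.14 (SD, n = 3 each). This gap follows from the choice of the pair, because every D-serine library already lay below control in Egr1 and above control in Ier2. It adds nothing to the values of the 2 genes. The exon lengths are 1522 bases for Ier2 and 3072 bases for Egr1, and the length trend of D-serine replicate 1 favoured the shorter of the pair by 0.077 on the log2 scale. With each library's trend removed, the ratio was 1.81, 1.78 and 1.71 in control and 2.19, 2.09 and 2.29 with D-serine. The groups were again apart, for the same pair picked by its values.

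**Figure D3:**
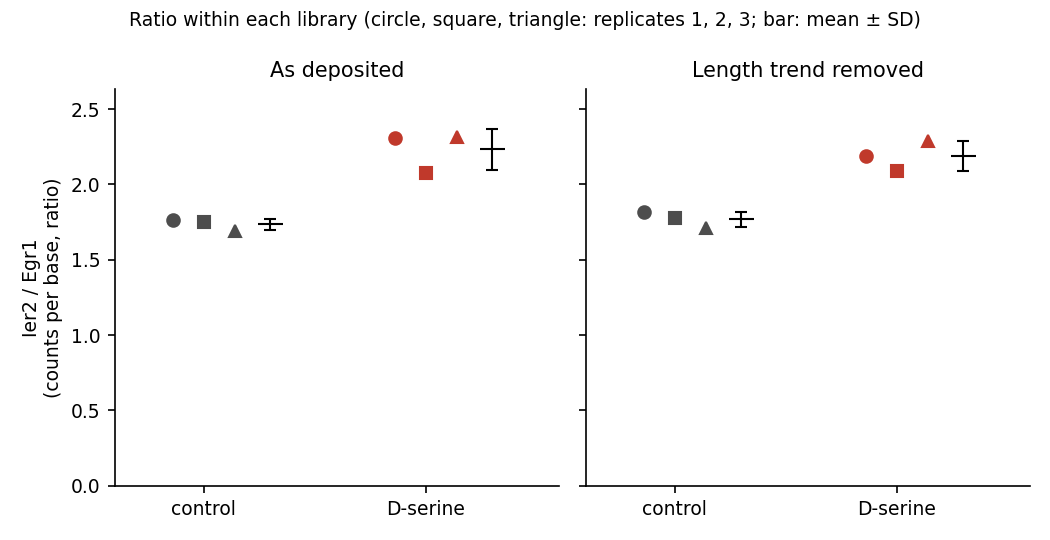
Ratio of Ier2 to Egr1 counts per exon base (y axis, from 0) in each control (grey) and D-serine (red) library, as deposited and with each library's length trend removed, with the mean ± SD. All D-serine libraries lie above 2 and all control libraries below 1.9 on both sides. The pair was picked for its opposite estimates, so the gap is not a separate result.

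The levels of the genes were compared per length as TPM (a gene's share of all transcripts, corrected for exon length), over all 6 libraries. The SD over the 6 libraries pools both groups and includes any difference between them. Ier2 was the most abundant at 365 ± 18.5 TPM (SD, n = 6), followed by Egr1 at 186 ± 19.0, Ier3 at 74.5 ± 3.42, Ier5 at 58.8 ± 2.03 and Nr4a1 at 34.2 ± 0.86 TPM. Each of these 5 was above the next gene in the order in every library. Below them came Nr4a2 at 10.1 ± 0.84, Egr2 at 9.62 ± 0.98, Nr4a3 at 7.96 ± 1.03 and Egr3 at 5.73 ± 0.98 TPM. In this lower group the ranges of each neighbouring pair over the 6 libraries overlapped. Within libraries, Nr4a2 was above Egr2 in 4 of 6, so this pair has no steady order, while Egr2 was above Nr4a3 and Nr4a3 above Egr3 in 6 of 6. Egr4 was at 0, below 0.106 TPM at 3 counts in the shallowest library. The Egr genes ran from Egr1 to the undetected Egr4, and the Nr4a genes from Nr4a1 down to Nr4a3. By group, Egr1 was at 203 ± 2.92 TPM in control and 170 ± 9.56 TPM with D-serine (SD, n = 3 each). Ier2 was at 352 ± 11.9 TPM in control and 379 ± 12.6 TPM with D-serine.

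**Figure D4:**
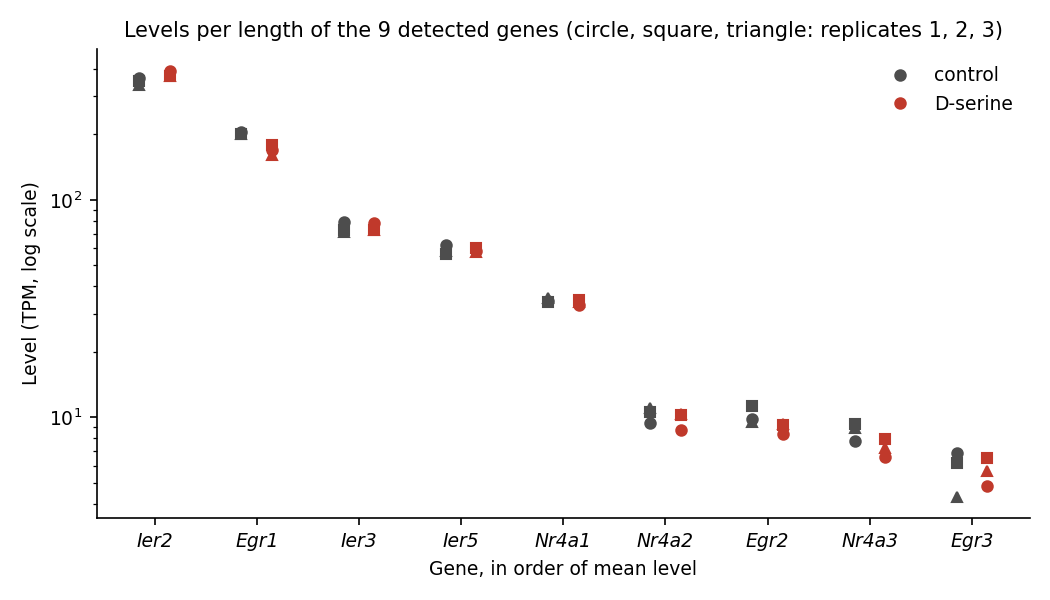
Level in TPM (y axis, log scale) of the 9 detected genes in order of their mean, in control (grey) and D-serine (red) libraries. Ier2 and Egr1 lie at 160 TPM or more in every library, and the 4 genes on the right lie between 4 and 12 TPM. Egr4, at 0, is not drawn.

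The genes whose profile over the 6 libraries was most like that of Egr1 were sought among 11291 other tested genes of at least 1 CPM, by the root mean square distance between log2 CPM values centred on each gene's mean. The nearest 3 were Mtss1l, at a distance of 0.022, Cars, which encodes cysteinyl-tRNA synthetase, at 0.027, and the zinc finger gene Zfp740 at 0.029. Their log2 fold changes were -0.27, -0.27 and -0.20, whose nearness to that of Egr1 follows from how they were picked. None of the 3 is an immediate early gene of the lists used here. Those lists hold few of the 11291 genes searched, so this carries no weight.

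Other immediate early genes of the same response were read from the same fit. Of 42 listed, 41 were tested and 6 were called (14.6%, next to 9.74% of all tested genes), 5 higher and 1 lower with D-serine. Their median log2 fold change was 0.086, next to 0.0053 over all tested genes. The AP-1 subunit Jun was at 288 ± 1.57 CPM in control (SD, n = 3) and rose to 345 ± 9.0 CPM (0.26 on the log2 scale, with an SE of 0.040 and an edgeR adjusted p of 0.00552) and Myc, a growth-promoting transcription factor, from 341 ± 2.18 to 404 ± 13.4 CPM (0.25, adjusted p = 0.00775). Gadd45g, a stress-induced regulator of growth arrest, rose from 80.4 ± 1.46 to 98.3 ± 9.13 CPM (0.29, adjusted p = 0.0157). The small GTPase gene Gem rose from 43.1 ± 0.94 to 50.8 ± 0.74 CPM (0.24, adjusted p = 0.0160), and Dusp1, a phosphatase that switches off MAP kinases, from 27.6 ± 0.26 to 31.9 ± 1.44 CPM (0.21, adjusted p = 0.0449). Fosb, the AP-1 partner, fell from 31.9 ± 1.98 to 26.9 ± 1.59 CPM (-0.25, adjusted p = 0.0418). Fos (-0.048, adjusted p = 0.590) and Junb (0.064, adjusted p = 0.434) did not pass.

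The calls of these genes rested on single libraries to different degrees. Jun (adjusted p = 0.0501) and Myc (0.0548) lost theirs without control replicate 2. Gadd45g and Gem lost theirs without control replicate 1, control replicate 2 or D-serine replicate 3, where the highest adjusted p was 0.0772 and 0.0757. Fosb lost its call without any of the 3 control libraries or D-serine replicate 3 (highest 0.167), and Dusp1 in all 6 such fits (highest 0.148). Under upper quartile scaling or library totals 8 genes of the list were called, 8 higher and 0 lower, without Fosb. Calls over all tested genes leaned the same way, with 914 higher and 412 lower under upper quartile scaling. With library totals that split was 944 higher and 412 lower. Egr1 stayed called and lower under both scalings. With the length trend removed, 12 genes were called, 9 higher and 3 lower. Over all tested genes the same setting called 2041, of which 1023 were higher and 1018 lower.

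The kinases and transcription factors that induce these genes had mostly negative estimates. Of 28 listed, 27 were tested, 20 had a negative and 7 a positive log2 fold change, and the median was -0.12, next to 0.0053 over all tested genes. Over all 13366 tested genes, 6476 estimates were negative and 6890 positive. The overall median moved to 0.035 under upper quartile scaling and with library totals, where the signs of this list were not counted. D-serine replicate 1 was the lowest of the 6 libraries in 15 of the 27 genes (55.6%, next to 26.2% of all tested genes). Without it 19 estimates were negative, next to 6527 of 13366 over all tested genes, and the median was -0.095. The test called 3 (11.1%, next to 9.74%). Elk1, a partner of serum response factor that ERK phosphorylates, was at 30.3 ± 1.98 CPM in control (SD, n = 3) and fell to 25.5 ± 1.39 CPM (-0.25 on the log2 scale, with an SE of 0.070 and an edgeR adjusted p of 0.0425). Mef2d, an activity-dependent factor, fell from 63.4 ± 2.67 to 54.1 ± 4.85 CPM (-0.23, adjusted p = 0.0428). Elk3, a partner of serum response factor that can act as a repressor, rose from 35.6 ± 1.03 to 41.1 ± 1.32 CPM (0.21, adjusted p = 0.0362). Srf itself was measured at 85.9, 84.1 and 82.0 CPM in control and at 79.5, 75.4 and 77.4 CPM with D-serine, without overlap, but did not pass (-0.12, adjusted p = 0.125). Elk1 and Mef2d were called neither under upper quartile scaling nor with library totals, where Elk3 was the 1 call of the list, and Mef2d was not called with the GC trend removed (adjusted p = 0.0507). Leaving out control replicate 1, control replicate 2 or D-serine replicate 3 ended all 3 calls, with highest adjusted p-values of 0.154 for Elk1, 0.141 for Mef2d and 0.128 for Elk3. Elk3 and Mef2d also lost theirs without control replicate 3, and Elk1 without D-serine replicate 1.

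**Figure D5:**
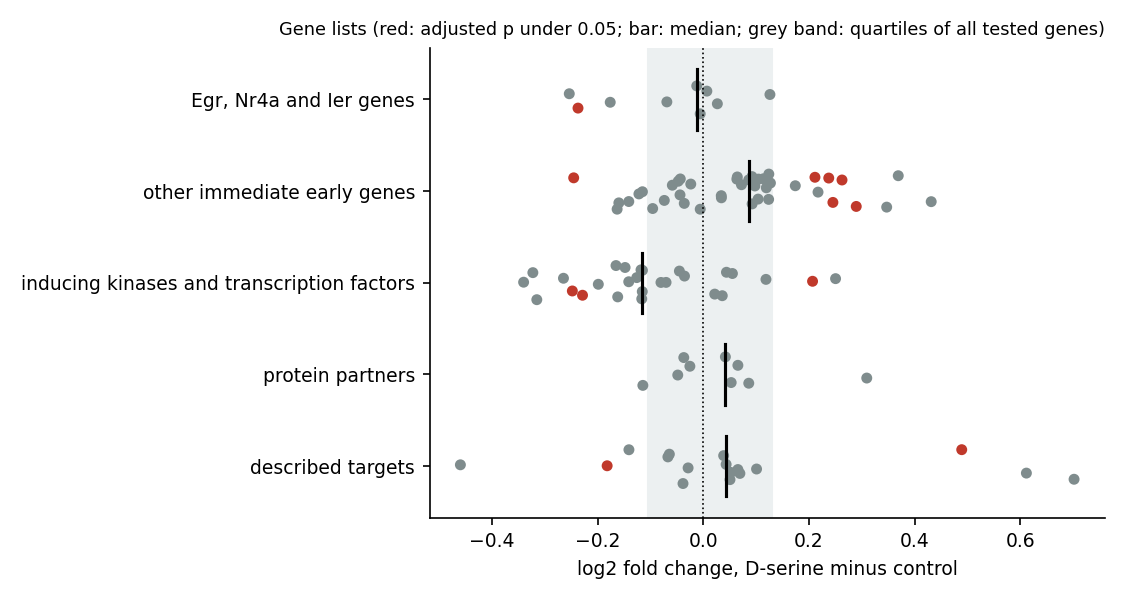
Log2 fold change of D-serine minus control (x axis) for each tested gene of the lists (y axis), with genes past the threshold in red, the list median as a bar and the quartiles of all tested genes as a grey band. The medians are -0.013 for the Egr, Nr4a and Ier genes, 0.086 for other immediate early genes and -0.12 for the inducing factors.

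The protein partners and described targets were read last. None of 9 tested partners of 10 was called in edgeR, next to 9.74% of all tested genes, and with so few genes this says little. At an unadjusted p under 0.05 there was 1 of 9, next to 28.2% of all tested genes. It was Rxra, named after its values were seen (log2 fold change 0.31, adjusted p = 0.0901). The EGR corepressors Nab1 (74.1 ± 2.68 and 71.7 ± 2.11 CPM in control and D-serine, SD, n = 3 each) and Nab2 (50.3 ± 2.30 and 52.6 ± 2.48 CPM) had log2 fold changes of -0.048 (adjusted p = 0.557) and 0.065 (adjusted p = 0.481). Nab2, itself a described EGR target, shares 70 exonic bases with Stat6 on the opposite strand. Of 23 described targets, 17 were tested and 2 called (11.8%, next to 9.74%). Pomc, a described NR4A target that encodes a hormone precursor, rose from 8.45 ± 0.56 to 11.9 ± 1.56 CPM (0.49, SE 0.11, edgeR adjusted p = 0.0195). Hsph1, a chaperone gene driven by HSF1, fell from 508 ± 11.4 to 448 ± 9.54 CPM (-0.18, SE 0.040, adjusted p = 0.0167). Both lost their calls without control replicate 1, control replicate 2 or D-serine replicate 3, with highest adjusted p-values of 0.0888 for Pomc and 0.0937 for Hsph1. Hsph1 also lost its call without control replicate 3.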

How the data were processed

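The deposited data are raw counts for each gene, in 1 table laid out like featureCounts output per the file headers, beside each gene's summed exon length in bases. The submitters' processing notes name bcl2fastq, Trim Galore, HISAT2, Subread, featureCounts, DESeq2 and the builds GRCm38 and mm10. The library kit keeps strand, per the labels' protocols. Tool versions and the strand setting of the counting are not given in the sources used here. Only 314 of 23172 genes matched by symbol had the start of RefSeq GRCm38.p6, so gene coordinates are printed as deposited, 1-based, from a build not established here. Promoter coordinates are GRCm38.p6 and must not be set beside them.

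Columns named vehicle were assigned to the control samples of the same number. Counts were tested with edgeR 4.0.16 in R 4.3.3 (filterByExpr, TMM scaling, no covariate), and the step was tested on simulated data. CPM uses the TMM-adjusted library size. The SE is the log2 fold change divided by the square root of F. TPM was computed from counts and exon lengths. The 27 symbols turned into dates were kept as features and are not named.

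The genes and lists were chosen with earlier results of these data known. Named were all 10 genes, list members with an adjusted p under 0.05 (at most 8 a list), Nab1, Nab2, Fos, Fosb, Jun, Junb and Srf, and the 3 genes most like each called gene. Alternatives were DESeq2 1.42.0, limma-voom (limma 3.58.1), 3 scalings, 2 filters, replicate number as a block, removal of trends on length (spline with 5 degrees of freedom) or GC content, and leaving out each library.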

Additional observations from a re-analysis of the deposited data

How the results depend on the processing

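Leaving out 1 library at a time gave from 68 to 1699 called genes over all tested genes, from 0 to 1 of the Egr, Nr4a and Ier genes, from 0 to 9 of the other immediate early genes, from 0 to 9 of the inducing kinases and factors and from 0 to 2 of the described targets. In those fits the log2 fold change ran from -0.17 to 0.12 for Egr3, from -0.026 to 0.016 for Nr4a1, from -0.030 to 0.067 for Ier3 and from -0.024 to 0.037 for Ier5. None of these 4 genes was called in any setting. With all 6 libraries, the signs of Egr3, Nr4a1 and Ier3 changed in some settings. Egr3 was at 0.015 in limma-voom, 0.023 under upper quartile scaling, 0.023 with library totals, 0.0058 with the block, 0.014 with the length trend removed, 0.026 with that and the block, and 0.0020 with the GC trend removed. Nr4a1 was at 0.017 under upper quartile scaling and 0.017 with library totals. Ier3 was at -0.058 with the length trend removed, alone or with the block. Without a filter on low counts 2 of the 10 genes were called, Egr1 and Nr4a3. The inducing kinases and factors, 3 called as reported, gave 7 in DESeq2 (of 1632 calls over all tested genes, against 1302 as reported), 1 under upper quartile scaling (of 1326), 1 with library totals (of 1356), 9 without a filter (of 1867), 10 with the length trend removed and 9 with that and the block (of 1908). With the length trend removed, 2041 genes were called in all, 12 of the other immediate early genes, 4 described targets (also 4 with the block) and 1 partner (also 1 with the block). Same-numbered samples correlated at -0.056, 0.025 and -0.017 in their deviations from the group means, only control replicate 2 matched its own number best, and the labels give the numbers no shared source. With replicate number as a block 298 genes were called in all, with Egr1 among them at an adjusted p of 0.0497 and without Tubb3 at 0.0524, 3 of the other immediate early genes, 0 inducing factors and 1 described target. The cause of these changes was not tested. Among the 9 tested genes depth limits Egr2, Egr3 and Nr4a2 most, where counting error alone is between 4.34% and 5.28% per library.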
